A study of Mus musculus with 15 samples.

Results

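The genes described here are 9 enzymes of methionine, choline and one-carbon metabolism, chosen by name: Mat1a, Mat2a, Gnmt, Bhmt, Bhmt2, Cbs, Cth, Pemt and Dmgdh. For each, all probe sets (groups of short probes read together as 1 value) that carried its symbol alone were taken. Of the 9 genes 8 were found, on 10 of the 45101 probe sets of the array, and 18193 genes were measured in all. Mat2a, which makes S-adenosylmethionine outside the liver's main route, had no probe set under that single symbol in the annotation used and was not analysed here.

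Liver RNA was hybridised to Affymetrix mouse whole genome arrays, 1 mouse an array, with 5 male mice in each of 3 groups. The XKA group was KKAy mice on a high-fat diet that received XKA, a traditional Chinese medicine, by gavage at 1.5 g/kg once daily for 32 days. The Model group was KKAy mice on the same diet that received distilled water. The Normal group was C57BL/6J mice on chow that received distilled water. KKAy is an obese and diabetic strain that carries the yellow allele of agouti, and dosing started at 10 weeks of age. Strain, diet and supplier differed together between the KKAy and C57BL/6J mice, so they cannot be told apart in any difference from the Normal group. The methods place the sacrifice in the fed state and name fasting for the blood drawn before it.

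The liver turns methionine into S-adenosylmethionine (SAM), the methyl donor of most methylation reactions. Giving up the methyl group leaves S-adenosylhomocysteine and then homocysteine. Homocysteine is either methylated back to methionine, with a methyl group from betaine or from folate, or passed on to cysteine by transsulfuration. Choline is the source of betaine, and the methylation of phosphatidylethanolamine makes phosphatidylcholine, which the liver packs into lipoproteins. Knockout of several of these enzymes in mice is known to give fatty liver.

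Signals were scaled so that the median probe set of each array was 1000, and "scaled signal" below is that value. Levels were not compared between genes, since probes differ in brightness for the same amount of RNA, and "brighter" and "dimmer" below only tell apart the 2 probe sets of 1 gene. In a bulk liver sample, fewer cells of a type and less RNA per cell cannot be told apart.

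Each gene was read here from 1 probe set, that with the highest mean. Read so, none of the 8 genes passed the test in any of the 3 comparisons. Between XKA and Model 0 of 8 were called, where 0.176% of all genes were called. Between Model and Normal 0 of 8 were called, against 12.8% of all genes, and between XKA and Normal 0 of 8, against 7.37%. The test was limma on the log2 scaled signals of all 15 arrays with Benjamini-Hochberg adjusted p under 0.05 over all genes. On scaled signals of these probe sets, for none of the 8 did the 5 arrays of 1 group lie wholly apart from the 5 of another. Of all genes 1.45% did so between XKA and Model, 10.5% between Model and Normal and 6.95% between XKA and Normal. The dimmer probe set of Cbs, given below, did lie apart between XKA and Normal, at 7532 to 9462 against 10362 to 13984. In a limma fit over all probe sets it passed between Model and Normal (adjusted p 0.0278). As deposited or after quantile normalization some members did lie apart, as given below. The share of all genes that did so there was not counted. The median log2 change of the 8 genes was -0.07 between XKA and Model, -0.06 between Model and Normal and -0.14 between XKA and Normal. The medians over all genes were -0.06, 0.15 and 0.10 in the same order. On the 2 other scales the members' median was further from 0 against Normal. Between Model and Normal it was -0.25 both as deposited and after quantile normalization (all genes -0.04 and 0.04), and between XKA and Normal it was -0.30 and -0.28 (all genes -0.06 and 0.02). At an unadjusted p under 0.05 the counts over all genes were 1561, 4569 and 3516, and Pemt was the member below that level, with p of 0.0213 between Model and Normal and 0.0444 between XKA and Normal.

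**Figure D1:**
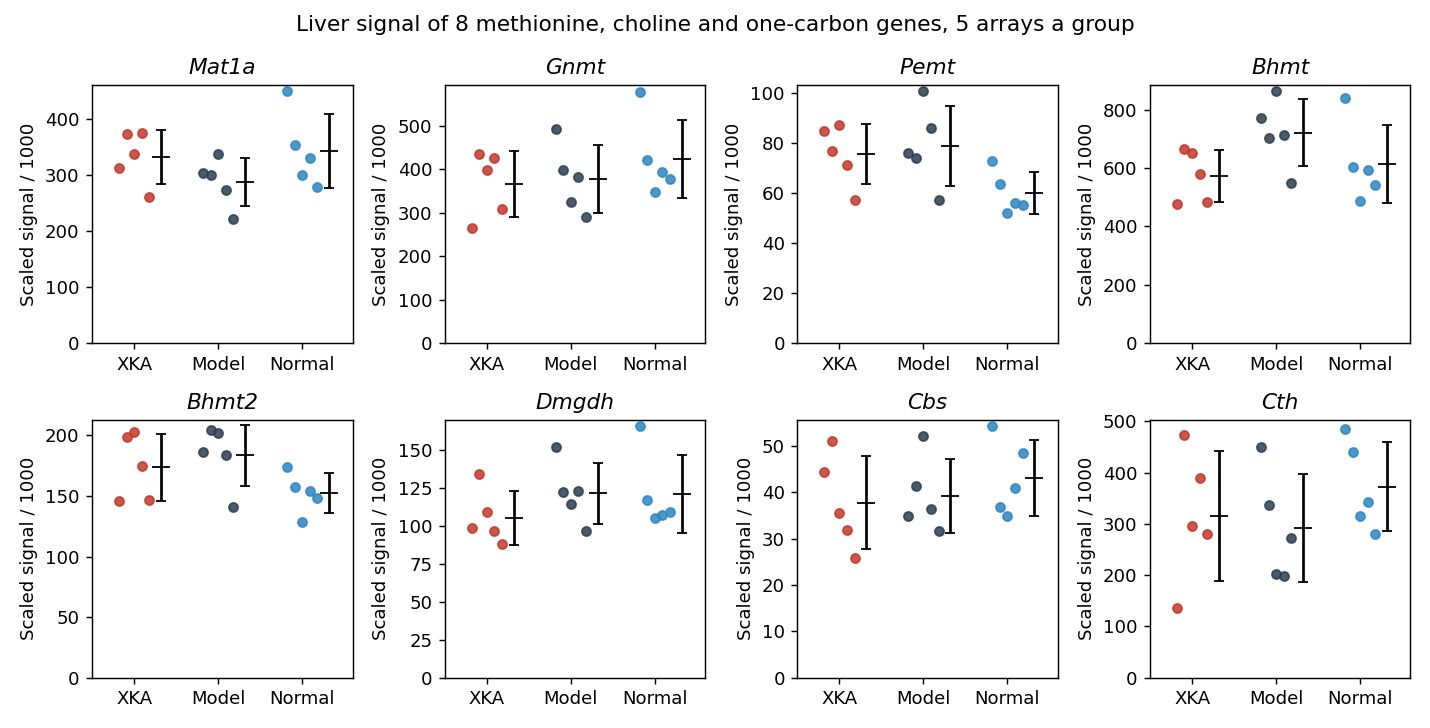
Scaled signal divided by 1000 (linear axis from 0) of the 8 measured genes, each on its probe set with the highest mean. Each point is 1 array, in replicate order within the XKA, Model and Normal groups, and the bar beside each group is the mean with its SD (n = 5). The groups overlap in every panel, and Normal replicate 1 is the highest of its group for all 8 genes.

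Mat1a encodes the liver's methionine adenosyltransferase, which makes SAM. Its scaled signal was 311636, 372329, 337243, 374950 and 259680 in the XKA livers. In the Model livers it was 302965, 298798, 336735, 273426 and 221543. In the Normal livers it was 448775, 353525, 299885, 330251 and 277352. The Model group held the lowest array and the Normal group the highest, with wide overlap. Means were 331168 ± 47802 in XKA, 286693 ± 42825 in Model and 341957 ± 66379 in Normal (SD, n = 5 each). The log2 change was 0.21 (SE 0.17, adjusted p 0.777) between XKA and Model, -0.25 (adjusted p 0.394) between Model and Normal and -0.04 (adjusted p 0.937) between XKA and Normal.

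The size of the Mat1a difference depended on how the arrays were brought to 1 scale. The deposited array medians were 136 to 161 in XKA, 127 to 162 in Model and 146 to 182 in Normal, so scaling to 1 median lowers the arrays with high medians, and the highest of each group were XKA replicate 5, Model replicate 5 and Normal replicate 3. The spread of Mat1a within groups, as the SD of its log2 values, was 0.238 after scaling, 0.149 as deposited and 0.110 after quantile normalization. Every one of the 8 genes had a smaller within-group spread as deposited and after quantile normalization than after scaling. As deposited, Mat1a read 46532, 50778, 46580, 51125 and 41895 in XKA. It read 38533, 41667, 45331, 38398 and 35929 in Model, and 65586, 53923, 54607, 52818 and 45305 in Normal. All Model values but that of replicate 3 lay below every Normal value.

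On the deposited values the Mat1a change between Model and Normal was -0.44 on the log2 scale (adjusted p 0.00960). After quantile normalization it was -0.44 (adjusted p 9.65e-04), and there the Model and Normal arrays did not overlap. Mat1a passed the test in 10 of 10 runs that left out 1 Model or Normal array as deposited (highest adjusted p 0.0278) and in 10 of 10 after quantile normalization (highest adjusted p 0.00404). Between XKA and Model the log2 change was 0.25 (adjusted p 0.438) as deposited. After quantile normalization it was 0.30 (adjusted p 0.105), with every XKA array above every Model array. The call in Mat1a is therefore absent with the scaling of the methods and present with both others, and which scale is right was not tested.

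**Figure D2:**
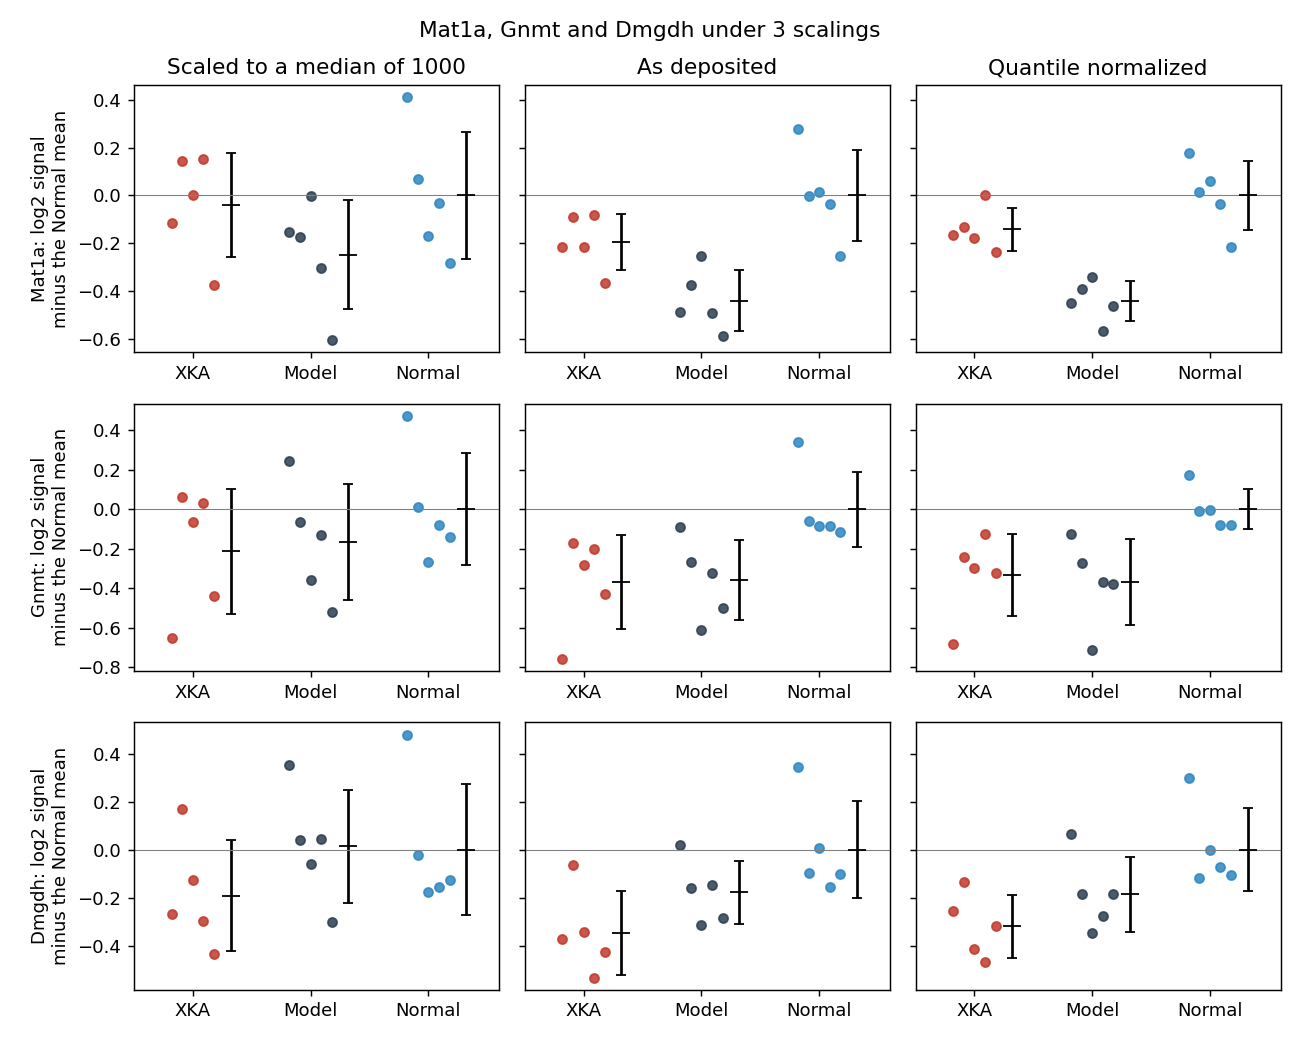
Log2 signal of Mat1a, Gnmt and Dmgdh minus the mean of the Normal group, after scaling to a median of 1000, as deposited and after quantile normalization (columns). Each point is 1 array of the XKA, Model or Normal group and the bars are the mean with its SD (n = 5). The 5 Model arrays of Mat1a lie wholly below the Normal arrays in the quantile column and overlap them in the scaled column.

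Gnmt, glycine N-methyltransferase, consumes SAM to methylate glycine and is among the most abundant methyltransferases of liver. The scaled signals were 265111, 435257, 398631, 427068 and 307714 in XKA. They were 494213, 398983, 324959, 381470 and 291296 in Model and 579014, 420711, 346978, 394786 and 378730 in Normal. All 3 ranges overlapped, with the lowest array XKA replicate 1 and the highest Normal replicate 1. The log2 change was -0.05 between XKA and Model (SE 0.19, adjusted p 0.970), -0.17 between Model and Normal (adjusted p 0.661) and -0.21 between XKA and Normal (adjusted p 0.625). After quantile normalization Gnmt was lower in Model than in Normal by a log2 change of -0.37 (adjusted p 0.0334), and 4 of 10 runs without 1 array passed, those without Model replicate 1 or 2 or Normal replicate 4 or 5, with the highest adjusted p, 0.0851, without Model replicate 3. As deposited the change was -0.36 (adjusted p 0.0937). After quantile normalization all XKA and all Model arrays lay below all Normal arrays, and as deposited all XKA arrays did, although the change between XKA and Normal did not pass (adjusted p 0.0740 and 0.109).

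The window before the Gnmt start site held an NF-Y box, the CCAAT letters that the NF-Y factor is known to bind. RefSeq's GRCm38.p6 table gives promoter windows, 250 bases before to 50 after a start, for 6 of the 8 measured genes and for Mat2a, 8 windows in all, with no entry for Mat1a and Cth. The 100 bases before the Gnmt and Bhmt starts are shown as examples with that box, in capitals as ATTGG, its reverse complement. Both are minus-strand, at chr17:46729166-46729265 and chr13:93637759-93637858. These starts are those of the promoter windows. The annotated Gnmt gene reaches to 46729211, so part of the Gnmt stretch shown lies within the gene. Both Pemt windows lie wholly within the annotated Pemt gene, which reaches to 60046561.
Gnmt: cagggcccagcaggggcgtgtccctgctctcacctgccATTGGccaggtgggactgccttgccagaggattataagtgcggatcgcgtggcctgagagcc
Bhmt: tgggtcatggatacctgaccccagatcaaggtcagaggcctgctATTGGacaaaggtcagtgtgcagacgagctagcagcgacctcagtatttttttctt
CCAAT, sought on both strands, was in 5 of the 8 windows and in 37.4% of all 32851 windows of the table. The 5 were the windows of Mat2a, Gnmt, Bhmt and Cbs and window 1 of Pemt. TGATGNAAT, the C/EBP-ATF response element, was in 0 of 8 and in 0.965% of all. CACGTG, the E-box, was in the Cbs window and in 7.15% of all, TGACGTCA, the CRE, in 0 of 8 and 1.79%, and TATAAA in the Mat2a window and 13.6%.

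Pemt makes phosphatidylcholine from phosphatidylethanolamine with 3 methyl groups from SAM. Its scaled signals were 84986, 76996, 87175, 71326 and 57391 in XKA. They were 76101, 74015, 100923, 86278 and 57434 in Model and 73072, 63826, 51915, 56089 and 55332 in Normal. In both KKAy groups 4 of 5 arrays lay above all Normal arrays but the first. Means were 75575 ± 11978 in XKA, 78950 ± 16062 in Model and 60047 ± 8485 in Normal (SD, n = 5 each). The log2 change was -0.05 (adjusted p 0.956) between XKA and Model. It was 0.38 (SE 0.15, 95% interval 0.06 to 0.70, adjusted p 0.115) between Model and Normal and 0.33 (adjusted p 0.242) between XKA and Normal. Without Model replicate 5, the lowest of its group, the change between Model and Normal was 0.49 (adjusted p 0.0268), and with weights for array quality it was 0.42 (adjusted p 0.0385). As deposited it was 0.19 (adjusted p 0.333) and after quantile normalization 0.19 (adjusted p 0.247).

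Bhmt returns homocysteine to methionine with a methyl group from betaine, and its product dimethylglycine goes on to Dmgdh. Its scaled signals were 478113, 666450, 652551, 580277 and 482273 in XKA. They were 772707, 702396, 865674, 713675 and 549649 in Model and 839272, 604194, 488343, 593591 and 540939 in Normal. Of the 5 Model arrays 4 lay above every XKA array, and the fifth, Model replicate 5, lay among them. The log2 change between XKA and Model was -0.33 (SE 0.19, 95% interval -0.73 to 0.06, adjusted p 0.669), which did not pass. Over 27 other settings it stayed between -0.43 and -0.18. The lowest p, 0.110, was that of Dunnett's comparison without adjustment over genes. Without 1 array the lowest adjusted p over all genes was 0.398. Between Model and Normal the change was 0.24 (adjusted p 0.475), against 0.05 as deposited and -0.07 after quantile normalization, and between XKA and Normal it was -0.09 (adjusted p 0.859), against -0.25 on both other scales.

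Bhmt2 does the same reaction with S-methylmethionine as donor. Its brighter probe set averaged 173770 ± 27489 in XKA, 183572 ± 25440 in Model and 152508 ± 16238 in Normal (SD, n = 5 each). Changes were -0.08 (adjusted p 0.923) between XKA and Model, 0.26 (adjusted p 0.273) between Model and Normal and 0.18 (adjusted p 0.564) between XKA and Normal. As deposited and after quantile normalization the change between Model and Normal was 0.07 on both scales, and between XKA and Normal it was 0.02 and 0.07. The dimmer of its 2 probe sets gave -0.01, 0.12 and 0.11 on the log2 scale for the same comparisons.

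Dmgdh oxidises dimethylglycine in mitochondria and passes its methyl carbon to folate. The scaled signals were 98615, 133823, 108739, 96592 and 87854 in XKA. They were 151764, 122199, 114019, 122686 and 96339 in Model and 165785, 116968, 105218, 106841 and 108852 in Normal. The first array was high in the Model and Normal groups, and the others overlapped. Changes were -0.21 (adjusted p 0.754) between XKA and Model, 0.01 (adjusted p 0.969) between Model and Normal and -0.19 (SE 0.16, adjusted p 0.571) between XKA and Normal. After quantile normalization the change between XKA and Normal was -0.32 (adjusted p 0.0420), and 4 of 10 runs without 1 array passed, those without XKA replicate 1 or 2 or Normal replicate 2 or 5. Without Normal replicate 1 it was -0.24 (adjusted p 0.105). As deposited it was -0.35 (adjusted p 0.0581). The XKA and Normal arrays did not overlap after quantile normalization, where the share of all genes that did not was not counted.

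Bhmt, Bhmt2 and Dmgdh lie on chromosome 13, and Bhmt2 (minus strand) and Dmgdh (plus strand) are divergent genes whose starts, 93674302 and 93674436 in GRCm38.p6, are 134 bases apart. The 133 bases between the starts, chr13:93674303-93674435 on the plus strand, are shown because both genes are read outward from this stretch.
Between Bhmt2 and Dmgdh: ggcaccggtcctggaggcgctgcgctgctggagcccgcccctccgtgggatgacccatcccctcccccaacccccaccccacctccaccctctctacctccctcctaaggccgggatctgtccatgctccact
This stretch was 69.9% G and C, against a median of 52.7% over all promoter windows, and held none of the 5 motifs sought, from which nothing is read about the factors. Over the 15 arrays, after the group means were taken off, the log2 signals of Bhmt2 and Dmgdh correlated at r = 0.70 after scaling, at 0.27 as deposited and at -0.11 after quantile normalization. For Bhmt and Bhmt2 the values were 0.89, 0.69 and 0.37, and for Gnmt and Cth, which lie on different chromosomes, 0.80, 0.79 and 0.82. Over the 28 pairs of members the median was 0.69 after scaling, 0.38 as deposited and 0.24 after quantile normalization. All pairs share the same arrays and their scale factors.

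Cbs, cystathionine beta-synthase, starts transsulfuration by joining homocysteine to serine. Its brighter probe set read 44294, 51131, 35438, 31883 and 25887 in XKA. It read 34951, 41356, 52106, 36272 and 31586 in Model and 54208, 36884, 34911, 40836 and 48450 in Normal. The 3 groups shared most of their range. The log2 change was -0.08 (adjusted p 0.947) between XKA and Model, -0.14 (adjusted p 0.705) between Model and Normal and -0.21 (adjusted p 0.590) between XKA and Normal. As deposited and after quantile normalization the change between Model and Normal was -0.33 (adjusted p 0.195) and -0.32 (adjusted p 0.185), and between XKA and Normal it was -0.37 and -0.35, none of which passed.

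The dimmer Cbs probe set read 7532, 9042, 9462, 8693 and 7867 in XKA. It read 8229, 10399, 7872, 8833 and 5690 in Model and 11853, 10578, 10362, 11737 and 13984 in Normal. All XKA arrays lay below all Normal arrays, and in Model only replicate 2 reached the lowest Normal value. In a limma fit over all 45037 probe sets, where 3804 passed between Model and Normal, its change was -0.53 (SE 0.15, adjusted p 0.0278) between Model and Normal. Between XKA and Normal it was -0.45 (adjusted p 0.0905) and between XKA and Model 0.08 (adjusted p 0.940). As deposited and after quantile normalization the change between Model and Normal was -0.72 (adjusted p 8.81e-04) and -0.70 (adjusted p 6.99e-04). It passed in 6 of 10 runs without 1 array, failing without Model replicate 3 or 5 or Normal replicate 4 or 5 (highest adjusted p 0.0835, without Normal replicate 5), and its adjusted p was 0.0546 without Model replicate 3 and XKA replicate 1. The dimmer probe set was called and the brighter was not, a difference between probe sets that was not itself tested, and no source used here says which transcripts each reads.

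**Figure D3:**
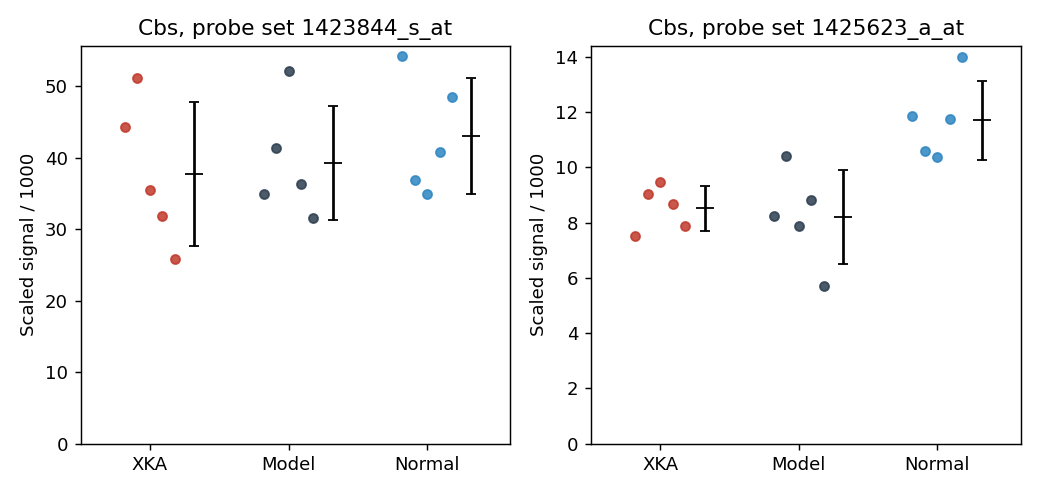
Scaled signal divided by 1000 (linear axis from 0) of the 2 probe sets of Cbs in the XKA, Model and Normal groups. Points are arrays and bars are the mean with its SD (n = 5). The brighter set (left) overlaps across groups, and on the dimmer set (right) the Normal arrays read 10362 to 13984 against 7532 to 9462 in XKA and 5690 to 10399 in Model.

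Cth, cystathionine gamma-lyase, splits cystathionine to give cysteine. It was the most variable of the 8 genes within groups, with a log2 SD of 0.525. The scaled signals were 136873, 474209, 296142, 389934 and 279769 in XKA. They were 450162, 336531, 202656, 198653 and 273261 in Model and 485988, 440909, 315122, 341873 and 279865 in Normal. Low arrays stood in both KKAy groups, XKA replicate 1 and Model replicates 3 and 4, and the Normal arrays began higher. The change was 0.07 (SE 0.29, adjusted p 0.971) between XKA and Model, with a 95% interval of -0.53 to 0.67 that leaves room for changes either way. It was -0.39 (adjusted p 0.441) between Model and Normal and -0.32 (adjusted p 0.615) between XKA and Normal. As deposited and after quantile normalization the change between Model and Normal was -0.58 (adjusted p 0.165) and -0.59 (adjusted p 0.156).

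**Figure D4:**
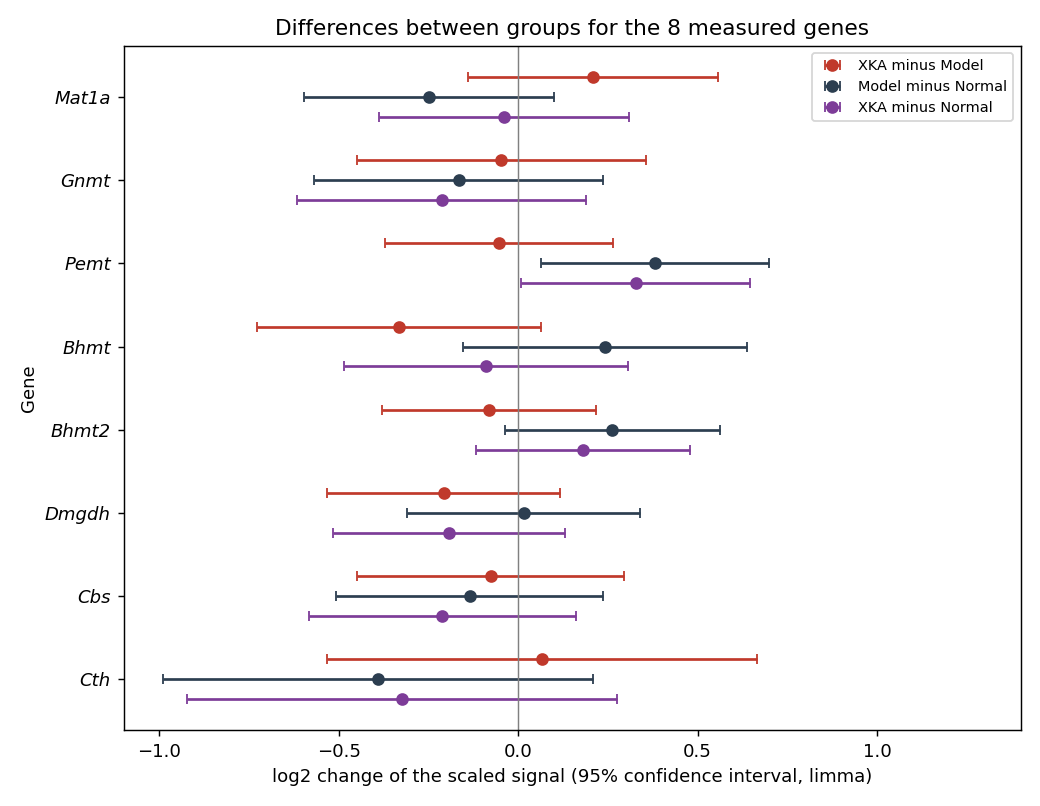
Log2 change of the scaled signal (points) with its 95% confidence interval from limma (bars) for the 8 genes in 3 comparisons, XKA minus Model, Model minus Normal and XKA minus Normal, each on 5 arrays a group. Intervals of Pemt against Normal lie above 0 without passing the adjusted threshold, and Cth has the widest intervals.

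The acute phase genes, which the liver makes in inflammation, varied widely between arrays. Of 13 measured, 7 rose in Model against Normal and 0 of 13 passed between XKA and Model. Their summed scaled signal was 2367110 to 6403248 in XKA, 3421846 to 8575377 in Model and 2009502 to 3080691 in Normal, with the highest arrays XKA replicate 1 and Model replicate 3. Without both of these arrays the count of members called stayed 0 in each of the 3 comparisons. Of the hepatocyte markers, among them Alb and Ttr, 1 of 9 was called higher in Model against Normal and 0 of 9 between XKA and Model, and they summed to 3329360 to 4510951 in XKA, 3347216 to 5311173 in Model and 3056300 to 4826110 in Normal. Markers of Kupffer cells, of which 1 of 10 rose and 1 fell in Model against Normal, summed to 140431 to 268184 in XKA, 180840 to 450874 in Model and 155062 to 278682 in Normal. Endothelial markers, 2 of 9 of them higher in Model against Normal, summed to 59953 to 97516 in XKA, 77619 to 98855 in Model and 55698 to 73162 in Normal. Neutrophil markers, with 1 of 5 higher, summed to 6564 to 26035 in XKA, 12381 to 31343 in Model and 5221 to 10503 in Normal. For both of these lists and for the acute phase genes every Model sum lay above every Normal sum. A sum is weighted to the brightest genes. By the mean log2 deviation of a list's genes, only the acute phase genes stayed apart. Endothelial markers then read -0.24 in Model replicate 2 and 0.13 in Normal replicate 1. Neutrophil markers read -0.80 in Model replicate 5 and 0.22 in Normal replicate 5. None of the markers of these 4 cell types passed between XKA and Model, where 0.176% of all genes did. Between Model and Normal 12.8% of all genes were called. Of periportal and pericentral hepatocyte markers 2 of 10 were lower in Model, with a median log2 change of -0.23 against 0.15 over all genes. Stellate and matrix markers had 2 of 9 higher in Model, and adipocyte markers 1 of 4. Lymphocyte and cholangiocyte markers had 0 of 7 and 0 of 5 called. None of these further markers passed between XKA and Model. The part of these lists in any value here was not tested.

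The study's reverse rate, the share of the Model to Normal difference that XKA takes back, rests on a divisor that, on scaled signals, passed the test for none of the 8 genes. On scaled means it was 0.805 for Mat1a, between 0.607 and 1.56 when 1 array was left out, and 0.512 as deposited, where the Model to Normal difference of Mat1a did pass. It was negative for Gnmt (-0.249) and Cbs (-0.402), where XKA lay further from Normal than Model did. For Pemt it was 0.179 (between -0.158 and 0.361), and for Bhmt 1.38 (between 0.908 and 1.95) but 6.15 as deposited. For Dmgdh, whose Model and Normal means were nearly equal, it ran from -59.7 to 45.9 on leaving out 1 array. No reversal was read from these values.

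The neighbouring pathways were described by lists. Of 116 listed genes in 7 lists, the members apart, 102 were measured. Between Model and Normal 25 were higher and 2 lower, 26.5% of the 102 against 12.8% of all genes, with a median log2 change of 0.23 against 0.15. Between XKA and Normal 15 were higher and 5 lower, 19.6% against 7.37%. Between XKA and Model 1 was lower and 0 higher, 0.980% against 0.176%. These shares were not tested against each other. The counts for each list below stand beside the same shares over all genes. With dim genes left out, 32 of 95 listed genes and 2566 of all 11624 were called between Model and Normal, and 24 of 95 and 1515 between XKA and Normal. The count that rose depends on the scale, since Model against Normal gave 16 higher and 9 lower as deposited and 20 higher and 13 lower after quantile normalization. The comparisons share their Model and Normal arrays.

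In the methionine cycle and its folate branch, 2 of 13 genes rose in Model and 0 fell, near the 12.8% of all genes called. Mtrr, the reductase that keeps methionine synthase active, rose by 1.13 on the log2 scale (SE 0.19, adjusted p 5.17e-04), with 5684 to 8416 in Model and 2783 to 3529 in Normal. It was also higher in XKA than in Normal, by 1.14 (adjusted p 7.01e-04). Mat2b, the regulatory partner of the Mat2a product, was higher in Model by 0.43 (adjusted p 0.0497), with overlapping arrays, and did not pass as deposited or after quantile normalization.

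The folate one-carbon pool had 3 of 21 genes higher in Model and 0 lower, also near the 12.8% of all genes called. Mthfd1l, which releases formate from mitochondrial folate, read 9724, 16073, 13136, 18333 and 12632 in XKA. It read 6145, 10518, 8508, 14577 and 8781 in Model and 1543, 1909, 2093, 1713 and 3216 in Normal. Both KKAy groups lay wholly above Normal. The log2 change was 2.20 (SE 0.23, adjusted p 1.73e-06) between Model and Normal and 2.75 (adjusted p 1.29e-07) between XKA and Normal. Ggh, which trims folate polyglutamates, rose by 1.06 (adjusted p 5.67e-05) in Model, and the folate carrier Slc46a1 by 0.86 (adjusted p 0.00327).

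Gldc, the glycine decarboxylase of the glycine cleavage system, was the 1 listed gene that passed between XKA and Model. It read 27688, 35948, 31965, 38157 and 32809 in XKA, against 49205, 55106, 67011, 59674 and 48730 in Model, and 56141, 42324, 33655, 44562 and 31536 in Normal. All XKA arrays lay below all Model arrays, and the Normal arrays spanned both. The log2 change was -0.75 (SE 0.15, adjusted p 0.0421). It was -0.71 (adjusted p 0.0140) as deposited and -0.70 (adjusted p 0.0119) after quantile normalization. The call held in 4 of 15 runs without 1 array, those without Model replicate 5 or Normal replicate 1, 3 or 5. It held in 6 of 12 other settings, which include Dunnett's comparison without adjustment over genes. With that adjustment Dunnett's comparison gave an adjusted p of 0.307. The change lay between -0.80 and -0.61 throughout, and without Model replicate 3 and XKA replicate 1 the adjusted p was 0.165.

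Of the genes of choline and phosphatidylcholine, 7 of 22 rose in Model and 0 fell. Chpt1, which completes phosphatidylcholine from CDP-choline, was higher in Model by 1.13 (SE 0.14, adjusted p 1.88e-05) and in XKA by 1.03 (adjusted p 7.19e-05) than in Normal. Its scaled signals were 230418 to 301667 in XKA, 230487 to 313141 in Model and 101305 to 147265 in Normal. Slc44a2, of the choline transporter-like family, was higher in Model by 1.14 (adjusted p 1.73e-04), and the ethanolamine kinase Etnk1 by 0.85 (adjusted p 7.91e-04). Fmo5, of the flavin monooxygenase family, was higher by 1.34 (adjusted p 1.36e-05) in Model and 0.92 (adjusted p 0.00113) in XKA. Gde1, a glycerophosphodiester phosphodiesterase, was higher than in Normal by 1.15 (adjusted p 1.86e-04) in XKA and by 0.75 (adjusted p 0.00585) in Model.

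Of the other SAM-consuming methyltransferases, 4 of 14 rose and 1 fell in Model. Tpmt, which methylates thiopurines, was higher by 1.87 (SE 0.16, adjusted p 1.41e-07) in Model and 1.78 (adjusted p 3.29e-07) in XKA. Its signals were 58211 to 101497 in XKA, 68565 to 99317 in Model and 19375 to 28766 in Normal. As3mt, the arsenic methyltransferase, was lower, by -1.20 (adjusted p 1.17e-04) in Model and -0.71 (adjusted p 0.0171) in XKA. It read 6679 to 11742 in XKA, 4807 to 8027 in Model and 12376 to 21106 in Normal, so all KKAy arrays lay below all Normal arrays. Nnmt, which methylates nicotinamide, was higher in XKA than in Normal by 0.79 (adjusted p 0.0430), with overlapping arrays. In Model it was 0.70 above Normal (adjusted p 0.0525). Between XKA and Normal it did not pass as deposited (adjusted p 0.0689) and passed after quantile normalization (adjusted p 0.0492). Coq5, which methylates a ubiquinone precursor, was higher in Model by 0.59 (adjusted p 0.00746).

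Downstream of transsulfuration, among the genes of cysteine, taurine and sulfide, 4 of 15 rose and 1 fell in Model. Gclc, the catalytic subunit of the enzyme that commits cysteine to glutathione, was higher in Model than in Normal by 1.14 (SE 0.18, adjusted p 3.03e-04). It read 95447 to 181199 in XKA, 194660 to 274449 in Model and 82024 to 140241 in Normal. All XKA arrays lay below all Model arrays, but the change between XKA and Model, -0.65, did not pass (adjusted p 0.209). Its partner subunit Gclm was higher in Model by 0.64 (adjusted p 0.00568). Kyat3, a kynurenine aminotransferase, was lower by -0.92 (adjusted p 0.00934) in Model and by -0.85 (adjusted p 0.0226) in XKA. Ethe1, a sulfur dioxygenase, and Suox, sulfite oxidase, were lower in XKA than in Normal, by -1.11 (adjusted p 0.00849) and -0.50 (adjusted p 0.0243). Suox changed by -0.33 (adjusted p 0.123) between Model and Normal after scaling, and it fell on both other scales, by -0.52 as deposited (adjusted p 7.22e-04) and by -0.52 after quantile normalization (adjusted p 1.96e-04). Ethe1 changed by -0.14 between Model and Normal (adjusted p 0.802). Between XKA and Model it changed by -0.98, which did not pass (adjusted p 0.142). Its XKA arrays, 13464 to 42574, all lay below its Model arrays, 42709 to 69896.

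In methionine salvage and polyamine metabolism 3 of 11 genes rose in Model, Sat1, Mtap and Apip, by 0.56, 0.52 and 0.47 on the log2 scale. In XKA against Normal, Odc1, which makes putrescine, was higher by 0.65 (SE 0.13, adjusted p 0.00380), with 83004 to 107785 in XKA and 47060 to 68064 in Normal, and Mri1 was lower by -0.76 (adjusted p 0.0285). Odc1 changed by 0.30 (adjusted p 0.158) and Mri1 by -0.55 (adjusted p 0.0901) between Model and Normal, and Mri1 passed there as deposited (-0.75, adjusted p 0.0128) and after quantile normalization (-0.70, adjusted p 0.0126). The list of serine and glycine supply had 2 of 6 genes higher in Model and 0 lower, with Psph, the last enzyme of serine synthesis, higher by 0.78 (adjusted p 0.00926), and Glyctk by 0.43 (adjusted p 0.0403). Sat1, Mtap, Apip and Glyctk did not pass between Model and Normal as deposited. After quantile normalization Mtap and Glyctk did not pass there either (adjusted p 0.0710 and 0.212), while Sat1 and Apip did (adjusted p 0.0185 and 0.0198).

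**Figure D5:**
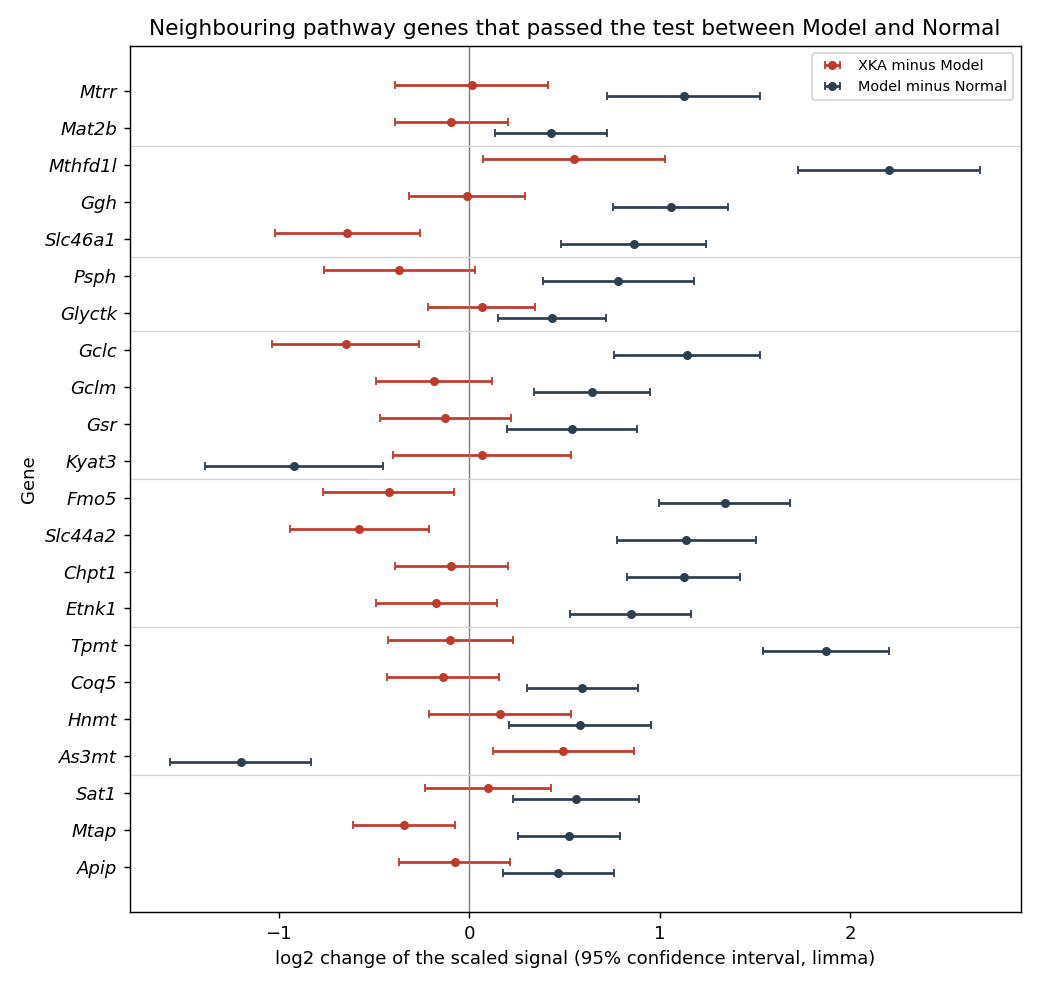
Log2 change of the scaled signal with its 95% confidence interval (limma) for the named neighbouring genes that passed between Model and Normal, in 2 comparisons, XKA minus Model and Model minus Normal, with grey lines between the 7 lists. As3mt and Kyat3 are the 2 that fell, and Mthfd1l and Tpmt have the largest changes of those drawn, 2.20 and 1.87.

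By the correlation of log2 scaled signals over 15 arrays among 11616 genes above the array median, the genes most like each member were Arl3 and Cblb for Mat1a (r = 0.91 and 0.90), Pon1 and Cps1 for Gnmt (0.96 and 0.95), and Atxn7l3b and Arl1 for Pemt (0.99 and 0.97). For Bhmt they were Slc25a3 and Ndufa8 (0.95 and 0.93), for Bhmt2 Adk and Ube2e3 (0.95 and 0.95), and for Dmgdh Get4 and Ndufa13 (0.90 and 0.89). For Cbs they were Lrp10 and Vps4a (0.92 and 0.91) and for Cth Gch1 and Car8 (0.88 and 0.88). These points share arrays and scale factors, and they describe likeness only.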

How the data were processed

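Intensity values deposited by the authors were linear, 1 value per probe set and array, for 15 arrays. Probe summary and background method are not given in the sources used here. The methods name median scaling to 1000, which the deposited intensity values do not show, so each array was scaled to that median and taken to log2. Of 45101 probe sets, 64 controls were left out, 34945 carried 1 symbol, 932 several and 9160 none, and 34741 were matched by Entrez identifier. Each of 18193 genes was read from its probe set with the highest mean log2. Groups were compared with limma 3.58.1 in R 4.3.3 (intensity trend, 15 arrays in 1 fit, two-sided, Benjamini-Hochberg adjusted p under 0.05). The code of the fit was also run on simulated data with independent noise and planted changes larger than those of the members. That run does not measure how well changes of the members' size would be found. The array number limits the precision. Dunnett comparisons used mvtnorm 1.3.3. Other tools were the R package data.table (version 1.17.8), Python 3.11.15, pandas 2.3.3 and matplotlib 3.10.9. Members and lists were chosen with earlier results of these data known. Named were the members, up to 4 called genes per list and comparison with the largest change, and the 2 genes most like each member. Alternatives covered scaling, probe sets, dim genes, the test, weights, the replicate number and each array left out. Counts over the pathway genes, Gldc, the dimmer Cbs probe set, and Mat1a, Gnmt and Dmgdh without single arrays under other scalings were added after the data were seen.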

Additional observations from a re-analysis of the deposited data

Results flagged for a closer look

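Among 123 sets of 5 arrays, of a probe set or a named gene within 1 group, 7 held an array far from the other 4 by Dixon's ratio at its 95% critical value, and chance gives about 1 in 20. Dmgdh was high in Normal replicate 1, at 165785 against 105218 to 116968 in the other Normal arrays. Coq5 was high in Model replicate 4 (21909), Etnk1 low in Normal replicate 3 (26182) and Gclc low in XKA replicate 1 (95447). Kyat3 was low in Model replicate 3 (47565) and in Normal replicate 3 (95766), where the others read 146913 to 148477. Odc1 was high in XKA replicate 4 (107785).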

How the results depend on the processing

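Over all genes, calls between XKA and Model were 63 as deposited, 113 after quantile normalization, 6 with probe sets averaged, 4 without the intensity trend, 57 with array weights, 19 with only the 2 groups fitted and 944 or 0 by Dunnett's comparison without or with adjustment over genes, and 11 to 61 without 1 array. Between Model and Normal they were 3804 over all probe sets, 3547 and 1359 by Dunnett, and 1648 to 2773 without 1 array. Between XKA and Normal they were 828 with probe sets averaged, 2154 over all probe sets, 881 without the trend, and 931 to 1438 without 1 array. Of the members, 1 was called between Model and Normal as deposited, where 11.7% of all genes were called. After quantile normalization 2 members were called in that comparison, against 14.7% of all genes. With weights 1 member was called there, and 0 to 1 without 1 array. Between XKA and Normal 1 member was called after quantile normalization, against 9.94% of all genes. The member counts were not tested against these shares. Of the neighbouring genes, 0 were called between XKA and Model with probe sets averaged, over all probe sets, without the trend, without Model replicate 3 and XKA replicate 1, and by adjusted Dunnett, 12 by unadjusted Dunnett, and 0 to 1 without 1 array. Between XKA and Normal 10 were called without the trend, and 15 to 24 without 1 array, and between Model and Normal 20 to 33 without 1 array.

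With the replicate number as a block, the calls over all genes were 22 between XKA and Model, 2082 between Model and Normal and 1170 between XKA and Normal, 0 members were called, and Gldc no longer passed (adjusted p 0.0774), leaving 0 neighbouring genes between XKA and Model. Same-numbered arrays deviated together by r of -0.04 to 0.09, so they share only a number.

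Signs turned for Dmgdh between Model and Normal (-0.18 as deposited, -0.19 quantile), Gnmt between XKA and Model (0.038 quantile, 0.014 without Model replicate 3 and XKA replicate 1), Bhmt between Model and Normal (-0.066 quantile), Bhmt2 between XKA and Model (0.015 without those 2 arrays), and, with weights, Mat1a (0.047) and Bhmt (1.6e-04) between XKA and Normal. Leaving out 1 array gave, between XKA and Model, -0.14 to 0.063 for Gnmt, -0.16 to 0.041 for Pemt, -0.20 to 0.049 for Cbs and -0.11 to 0.34 for Cth, between Model and Normal -0.069 to 0.135 for Dmgdh, and between XKA and Normal -0.11 to 0.064 for Mat1a and -0.17 to 0.029 for Bhmt. None of these passed the test, and the cause was not tested. The deposited files give no probe-level background, so its part is not known.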
